A study of Mus musculus with 2 samples.

Results

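The fibroblast growth factor (FGF) genes examined here are a set of 10: the ligands Fgf2 and Fgf18, the receptors Fgfr1, Fgfr2, Fgfr3, Fgfr4 and Fgfrl1, and the feedback inhibitors Spry1, Spry2 and Spry4. They were chosen by gene symbol, and all 10 were found among the 15719 genes listed with wild-type values. RNA had been measured in 2 libraries of superficial zone cells, the chondrocytes of the joint-facing layer of articular cartilage, from C57BL/6 mice at postnatal day 5. One library came from mice without Prg4 (Prg4KO), the gene of the joint lubricant lubricin, and the other from wild-type (WT) mice. In both groups the cells were freed from the cartilage of both femur ends and the upper tibia with trypsin and type I collagenase and seeded on fibronectin before polyadenylated RNA was taken for sequencing. The sources used here do not state the allele behind the Prg4 loss, how many mice were pooled or how long the cells were cultured. With 1 library per genotype there is no replicate and no test of genotype: each ratio below compares these 2 libraries, and its interval covers counting error only.

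In FGF signalling a secreted ligand binds a receptor tyrosine kinase together with heparan sulfate, and the receptor passes the signal through FRS2, GRB2 and RAS to the MAP kinases. The pathway induces its own brakes, among them the Sprouty proteins, which hold back the step from receptor to RAS and MAP kinase. In cartilage, FGF18 acts largely through FGFR3 and favours matrix formation, FGFR3 limits chondrocyte proliferation in the growth plate, and FGF2 is stored in the matrix around the cell on the heparan sulfate chains of perlecan.

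Gene positions are given on GRCm38, the assembly to which the name mm10 in the submitters' processing notes refers. Fgf2 (37348477 to 37410106) and Spry1 (37639947 to 37644599) share chromosome 3. Fgfr3 (33721724 to 33737068) and Fgfrl1 (108694229 to 108706950) share chromosome 5. Fgfr2 lies on chromosome 7 (130162451 to 130266808), Fgfr1 on chromosome 8 (25518759 to 25575718) and Fgf18 on chromosome 11 (33116970 to 33147400). Fgfr4 lies on chromosome 13 (55152818 to 55168759) and Spry2 on chromosome 14 (105891947 to 105896819).

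The DNA just before the transcription start, from RefSeq on GRCm38.p6, is shown for the more abundant ligand, for the receptor with the highest Prg4KO to WT ratio and for a pair of Sprouty genes that stood far apart in level. Each sequence is read 5′ to 3′ on the strand of its gene and ends at the base before the RefSeq start, except that the 50 bases of the Fgfr3 window that GENCODE counts as transcribed were left out. Capitals mark a GC box (GGGCGG on either strand), which is a match of letters and not a shown binding site.
Fgf18, 150 bases at chr11:33147401-33147550, minus strand: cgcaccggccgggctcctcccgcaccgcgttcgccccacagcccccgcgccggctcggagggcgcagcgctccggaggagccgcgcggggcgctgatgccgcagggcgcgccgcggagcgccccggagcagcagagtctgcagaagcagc
Fgfr3, 100 bases at chr5:33721574-33721673, plus strand: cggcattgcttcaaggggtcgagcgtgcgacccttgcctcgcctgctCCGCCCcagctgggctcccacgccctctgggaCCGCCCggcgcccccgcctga
Spry1, 150 bases at chr3:37639797-37639946, plus strand: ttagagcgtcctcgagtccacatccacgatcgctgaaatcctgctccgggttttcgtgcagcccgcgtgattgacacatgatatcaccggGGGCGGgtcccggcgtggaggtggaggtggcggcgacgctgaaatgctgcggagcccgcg
Spry2, 150 bases at chr14:105896820-105896969, minus strand: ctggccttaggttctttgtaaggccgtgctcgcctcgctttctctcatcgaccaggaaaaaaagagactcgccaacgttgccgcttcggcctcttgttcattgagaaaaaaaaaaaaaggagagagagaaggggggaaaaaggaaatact

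The printed Fgfr3 stretch held 2 GC boxes, that of Spry1 held 1, and those of Fgf18 and Spry2 held 0. Among all 32851 promoter windows of the RefSeq table, 28.6% held a GC box within 150 bases before the start. An ETS core, searched as CCGGAA on both strands, had 0 matches in the 150 bases of any of the 4 genes and was in 9.23% of all windows. A TATA box, searched as TATAAA, likewise had 0 and was in 7.57% of all windows. The 150 bases were 80.7% GC for Fgf18, 74.7% for Fgfr3, 64.0% for Spry1 and 47.3% for Spry2, with a median of 54.0% over all windows.

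The Prg4KO library held 21392574 expected counts and the WT library 21619093. Expected counts are estimated reads per gene, and FPKM is that count scaled by transcript length and library size. The deposited Prg4KO values do not stand beside their genes, so all Prg4KO values rest on a re-pairing by row order and effective length (count divided by FPKM). For the 10 genes the lowest probability of a pair was 0.999998, effective length differed between libraries by at most 2.18% (Spry1), and both neighbouring rows showed the same shift for 9 of 10, the exception being Fgf2. Counts were whole for 9 of the 10 genes in both libraries, Fgfr3 being the exception. Prg4 itself had an FPKM of 0.10 in the Prg4KO library and 593 in the WT library. Its Prg4KO value came from 6.15 counts, and its pair was less certain, with a probability of 0.9975 and an effective length difference of -32.6%. The chondrocyte markers were abundant in both, with Col2a1 at 15702 in the Prg4KO library and 14594 in the WT library. The 7 superficial zone markers besides Prg4 ranged from Gdf5 (4.45 in the Prg4KO library and 6.72 in the WT library) to Thbs4 (169 and 267). Markers of other cells were abundant too. The hypertrophic marker Col10a1 had 301 in the Prg4KO library and 241 in the WT library, and the fibroblast marker Col1a1 had 5593 and 11470.

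The receptor Fgfr1 was the most abundant of the 10 genes in both libraries, and Fgf2 the least. Fgfr1, the receptor that mesenchymal cells express broadly, had an FPKM of 119.4 (95% Poisson interval 117.3 to 121.5) in the Prg4KO library and 116.3 (114.2 to 118.4) in the WT library, above 96.6% of listed genes in each. Below it came Fgfrl1, Spry2, Fgfr3, Fgfr2, Spry4, Spry1, Fgf18, Fgfr4 and Fgf2, in this order in both libraries. The counting intervals of neighbours in the order overlapped only for Spry1 and Fgf18, in the Prg4KO library as well as in the WT library. The step from Fgfr3 down to Fgfr2 was 2.73-fold in the Prg4KO library and 1.98-fold in the WT library.

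**Figure D1:**
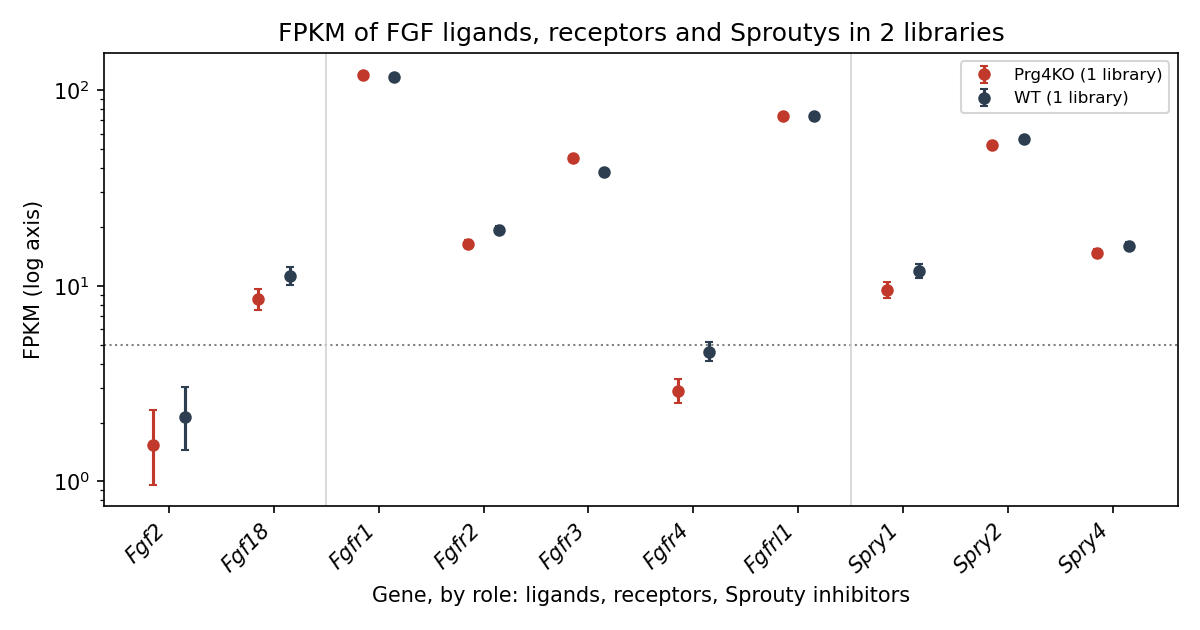
FPKM (log axis) of the 10 genes in the Prg4KO library (red, left of each pair) and the WT library (dark, right), with 95% Poisson intervals of the count as bars and FPKM 5 as a dotted line. The order of the genes was the same in both libraries, with Fgfr1 at 119.4 in the Prg4KO library and 116.3 in the WT library, and Fgf2 at 1.53 in the Prg4KO library and 2.14 in the WT library.

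Both ligands had lower values in the Prg4KO library. Fgf18, a growth factor of developing cartilage and bone, had 280 counts in the Prg4KO library (248 to 315) and 373 in the WT library (336 to 413). That is an FPKM of 8.52 in the Prg4KO library and 11.3 in the WT library, with a count ratio per library total of 0.759 (95% interval 0.647 to 0.888). Fgf2, the basic fibroblast growth factor, had only 22 counts in the Prg4KO library (13.8 to 33.3) and 31 in the WT library (21.1 to 44.0). Its FPKM was 1.53 in the Prg4KO library and 2.14 in the WT library, and its count ratio of 0.717 had an interval of 0.396 to 1.28, which includes 1, and a difference could not be detected with so few counts. The deposited Fgf2 model is 695 bases long, whereas the longest GENCODE transcript of the gene has 5973 bases, so reads from the remainder may be missing from its count. The span of Fgf2 overlaps that of the protein-coding gene Nudt6 on the opposite strand (91 counts in the Prg4KO library and 103 in the WT library). Without stated strand use, reads from bases that both genes transcribe cannot be told apart. Whether the counted Fgf2 model shares bases with a Nudt6 transcript was not tested.

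Few other FGF ligands were measurable. Of 20 further Fgf genes looked up, 14 were listed with WT values, and 1 of them, Fgf21, reached an FPKM of 5 in either library. Fgf21, a hormone-like FGF best known from liver, had an FPKM of 6.76 in the Prg4KO library and 8.30 in the WT library, with a count ratio of 0.816 (0.645 to 1.03). Next came Fgf13, one of the FGF-like proteins that stay inside the cell, with 1.49 in the Prg4KO library and 1.69 in the WT library. Fgf16, a secreted ligand of the Fgf9 group, had 33 counts in the Prg4KO library and 54 in the WT library, a count ratio of 0.618 (0.388 to 0.970). Over the 16 listed Fgf genes, FPKM summed to 21.6 in the Prg4KO library and 27.3 in the WT library, of which Fgf18 made up 39.4% in the Prg4KO library and 41.3% in the WT library.

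Among the receptors, Fgfr3 was higher, Fgfr2 and Fgfr4 were lower, and Fgfr1 and Fgfrl1 were within 3% of equal counts per library total. Fgfr3, the receptor of proliferating chondrocytes, had 3873 counts in the Prg4KO library (3752 to 3997) and 3338 in the WT library (3226 to 3453). Its FPKM was 44.9 in the Prg4KO library and 38.2 in the WT library, and its count ratio of 1.17 (1.12 to 1.23) was the highest of the 10. Among the tested genes, 60.6% had a lower log2 ratio than Fgfr3, so it lay near the middle. Its log2 ratio was 0.23 as reported and between 0.06 and 0.09 under the other scalings of the libraries. It was 0.45 with a trend in transcript length and GC content removed. Fgfr1 had 12459 counts in the Prg4KO library and 12307 in the WT library, a ratio of 1.02 (0.998 to 1.05). These 2 receptors therefore stood apart by more than counting error: the Fgfr3 to Fgfr1 ratio of FPKM was 0.376 in the Prg4KO library and 0.328 in the WT library, higher by a factor of 1.15 (1.09 to 1.21).

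Fgfr2, a receptor of the perichondrium and bone-forming cells, had 1787 counts in the Prg4KO library (1705 to 1872) and 2107 in the WT library (2018 to 2199). Its FPKM was 16.4 in the Prg4KO library and 19.3 in the WT library, with a count ratio of 0.857 (0.804 to 0.913). Fgfr4, best known as the bile acid feedback receptor of liver, had the lowest count ratio of the 10, at 0.634 (0.528 to 0.760), from 197 counts in the Prg4KO library and 314 in the WT library. Its FPKM of 2.91 in the Prg4KO library and 4.60 in the WT library stayed under the level limit of 5 used for calls. Fgfrl1, a receptor-like protein that binds FGF but lacks the kinase domain, had an FPKM of 73.4 in the Prg4KO library and 73.3 in the WT library, from 4015 counts in the Prg4KO library and 4027 in the WT library (ratio 1.01, 0.964 to 1.05). As measured against all genes, whose median FPKM ratio was above 1, both Fgfr1 and Fgfrl1 lay below the middle. The sign of the log2 ratio of Fgfr1 and of Fgfrl1 turned negative under all 4 other scalings of the libraries, at -0.11 to -0.13 for Fgfr1 and -0.14 to -0.16 for Fgfrl1.

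The make-up of the kinase receptors does not depend on how the libraries are scaled. Fgfr1 made up 65.0% of the summed FPKM of Fgfr1 to Fgfr4 in the Prg4KO library and 65.2% in the WT library. Fgfr3 made up 24.5% in the Prg4KO library and 21.4% in the WT library. Fgfr2 made up 8.95% in the Prg4KO library and 10.8% in the WT library, and Fgfr4 1.58% in the Prg4KO library and 2.58% in the WT library. The Fgfr3 to Fgfr2 ratio was 2.73 in the Prg4KO library and 1.98 in the WT library, a factor of 1.38 (1.28 to 1.50, counting error only). The ratio of Fgf18 to its receptor Fgfr3 was 0.190 in the Prg4KO library and 0.295 in the WT library, a factor of 0.644 (0.547 to 0.757). The gene rows pool all splice forms, so the IIIb and IIIc forms of Fgfr1, Fgfr2 and Fgfr3, which differ in ligand choice, were not separated.

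**Figure D2:**
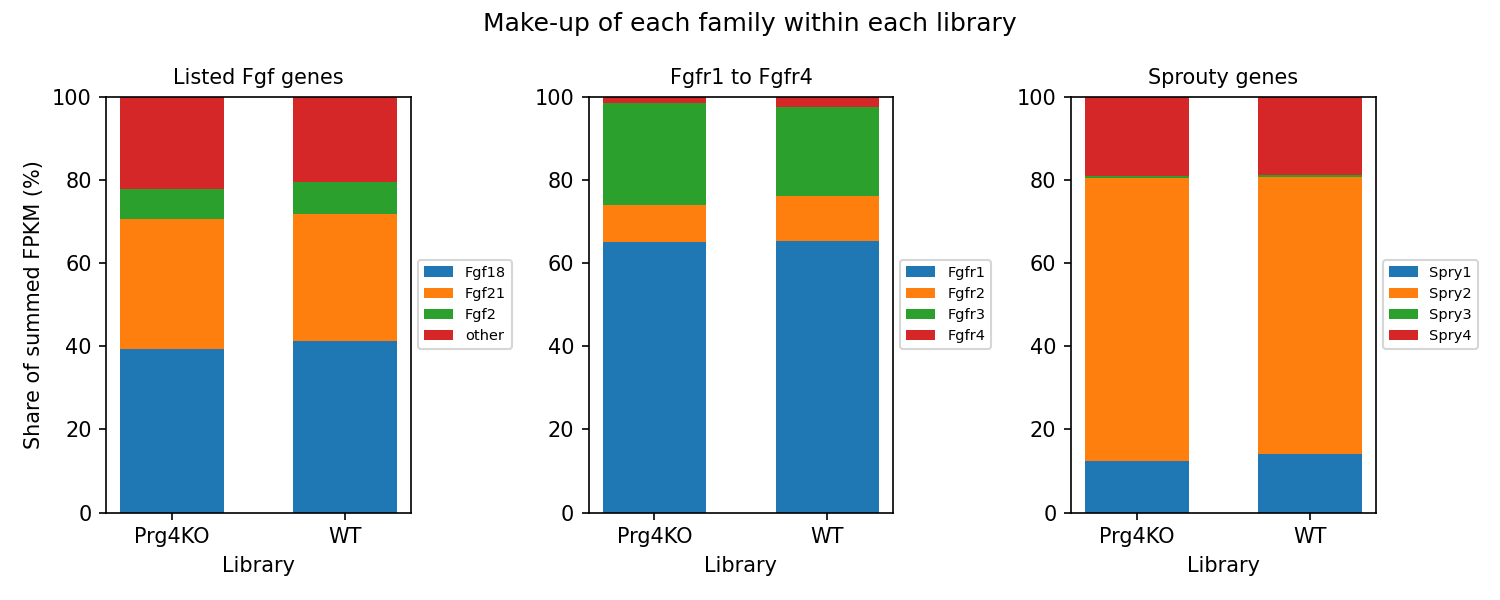
Share of summed FPKM (%) taken by each gene within the Prg4KO library (left bar) and the WT library (right bar), for the 16 listed Fgf genes, for Fgfr1 to Fgfr4 and for the 4 Sprouty genes. In the Prg4KO library Fgfr1 held 65.0% and Fgfr3 24.5% of the receptor sum and Spry2 68.0% of the Sprouty sum, and in the WT library these shares were 65.2%, 21.4% and 66.6%.

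The 3 Sprouty genes all had count ratios below 1. Spry2, the most abundant Sprouty gene, had 2358 counts in the Prg4KO library (2264 to 2455) and 2558 in the WT library (2460 to 2659). Its FPKM was 52.4 in the Prg4KO library and 56.4 in the WT library, with a count ratio of 0.932 (0.881 to 0.986). Spry4, a Sprouty that also curbs RAS and MAP kinase signalling, had 1468 counts in the Prg4KO library and 1605 in the WT library, a ratio of 0.924 (0.861 to 0.993). Its FPKM was 14.7 in the Prg4KO library and 16.0 in the WT library. Spry1, a Sprouty known for its role in kidney development, had 467 counts in the Prg4KO library (426 to 511) and 580 in the WT library (534 to 629). Its FPKM was 9.50 in the Prg4KO library and 11.95 in the WT library. Its count ratio of 0.814 (0.719 to 0.921) was the lowest of the 3. The Spry1 to Spry2 ratio was 0.181 in the Prg4KO library and 0.212 in the WT library, a factor of 0.855 (0.748 to 0.978), whereas the Spry4 to Spry2 ratio differed by a factor of 0.992 (0.907 to 1.09). Spry3 was barely present, at an FPKM of 0.39 in both. These contrasts depended on the processing. With a trend in transcript length and GC content removed, the log2 ratio of Spry1 was -0.21 instead of -0.30. That of Spry2 was -0.23 instead of -0.10, and that of Spry4 was 0.03 instead of -0.11. Spry1 then no longer lay below Spry2, and Spry4 lay above both.

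**Figure D3:**
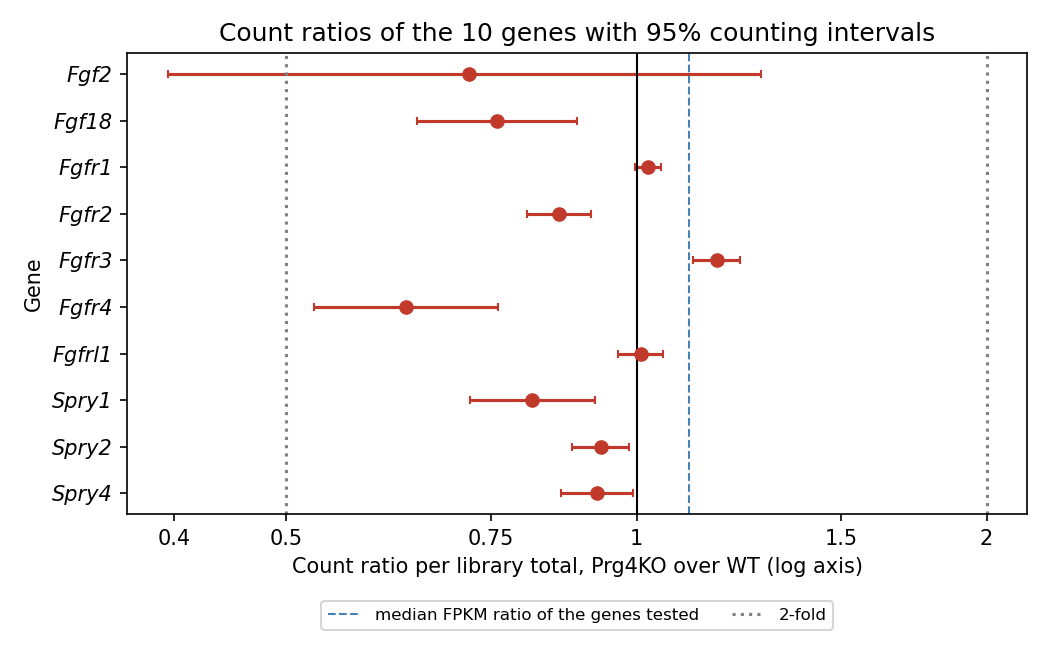
Count ratio per library total, Prg4KO over WT (log axis), of the 10 genes, with exact 95% counting intervals as bars, 2-fold as dotted lines and the median FPKM ratio of the tested genes as a dashed line. Of the 10 intervals, 6 lie below 1, against 13.0% of the 14811 genes paired between the libraries, that of Fgfr3 lies above 1, as for 37.5% of those genes, and those of Fgf2, Fgfr1 and Fgfrl1 include 1.

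Intervals that cover counting error only leave out 1 for many genes at this depth. Among the 7363 genes with an FPKM of at least 5 in either library, 18.9% had an interval below 1 and 52.5% one above 1. Of the 8 FGF genes at that level, 5 had one below 1 and 1 had one above 1.

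None of the 10 genes differed by a factor of 2 between the libraries. A ratio was called where the log2 ratio of FPKM, with a pseudocount of 1, reached 2-fold and the larger FPKM was at least 5. Of the 10 genes, 8 reached this level, and Fgf2 and Fgfr4 did not. Of these 8, 0 were at least 2-fold higher and 0 at least 2-fold lower, where 0.462% of the 7363 genes at that level were higher and 0.109% were lower. At 1.5-fold the count of the 8 was also 0 and 0, against 6.32% higher and 1.52% lower among all genes at that level. Fgfr4, left out by the level limit, was more than 1.5-fold lower by count ratio, at 0.634 (0.528 to 0.760). Its log2 ratio of FPKM with the pseudocount was -0.52, which is short of 1.5-fold.

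The set lay towards the lower side of the distribution of ratios. The median log2 ratio of the 7363 genes was 0.15, with quartiles at -0.06 and 0.34. The median over the 8 genes above the level limit was -0.11. Over all 10 genes it was -0.16, against 0.10 for the 14811 paired genes without a level limit. Of the 10 genes, 9 lay below the all-gene median of 0.15 (7 of the 8), Fgfr3 being the exception at 0.08 above it. Of the 8, 5 had a log2 ratio below 0, against 30.9% of the genes tested. Fgf18 lay 0.51 below the all-gene median, with 5.01% of genes lower still, Spry1 0.45 below (7.10%), Fgfr2 0.37 below (10.9%) and Spry2 and Spry4 0.25 and 0.26 below. With a trend in transcript length and GC content removed, Fgfr1 and Fgfrl1 lay 0.16 and 0.01 above the all-gene median, and 5 of the 8 lay below it.

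**Figure D4:**
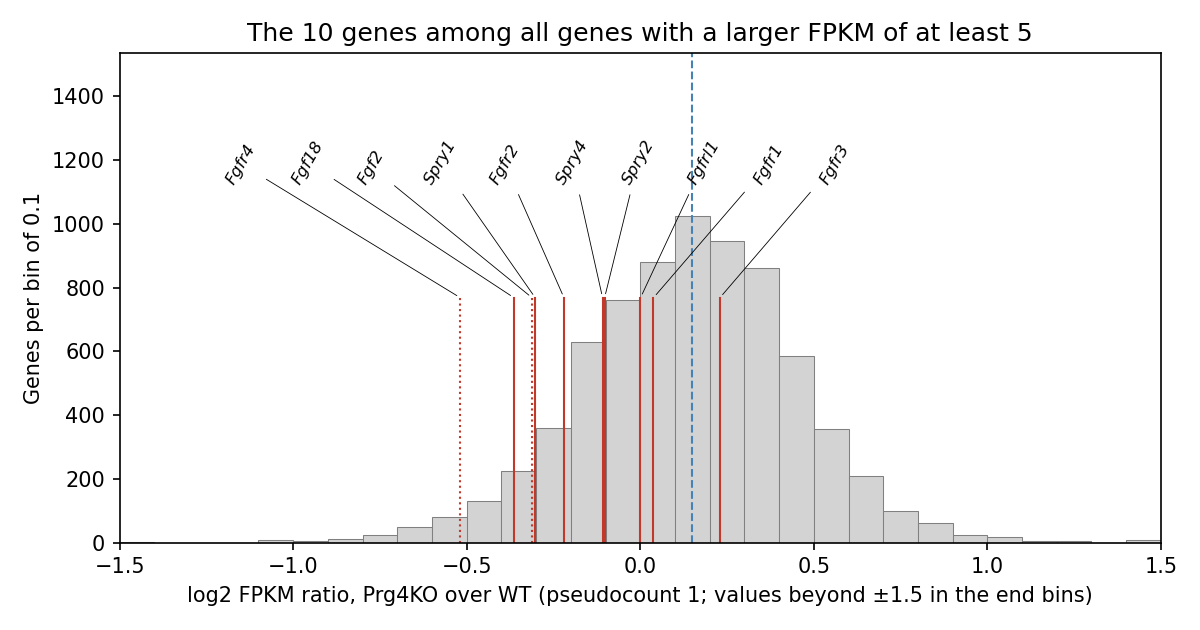
Number of genes per bin of log2 FPKM ratio, Prg4KO over WT, for the 7363 genes that reached FPKM 5 in either library (grey bars), with the all-gene median of 0.15 as a dashed line and the 10 genes as red lines, dotted for Fgf2 and Fgfr4, which were under the level limit. All red lines but that of Fgfr3 stand left of the dashed line.

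The genes on which FGF depends outside the cell differed in both directions. Of 16 co-receptors and binding proteins, 14 were listed and 10 reached the level limit. Of these 10, 0 passed 2-fold, 1 was at least 1.5-fold lower, and 7 had ratios under the all-gene median, the median of the 10 being -0.05 (log2). The 1 gene was Hspg2, which encodes perlecan, the heparan sulfate proteoglycan that stores FGF2 around chondrocytes, with an FPKM of 72.7 in the Prg4KO library and 125.5 in the WT library (count ratio 0.581, 0.571 to 0.590). Sdc4, the cell-surface proteoglycan syndecan 4, had the highest ratio, with 239 in the Prg4KO library and 176 in the WT library (1.36, 1.33 to 1.40). The glypicans split, Gpc1 having 133 in the Prg4KO library and 109 in the WT library (1.23, 1.19 to 1.26), and Gpc3 108 in the Prg4KO library and 134 in the WT library (0.811, 0.782 to 0.841).

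Enzymes that build and edit heparan sulfate were also listed. Of 12 such genes, 10 reached the level limit, 8 of them had ratios under the all-gene median, and their own median was -0.03 (log2). Sulf2, a sulfatase that trims heparan sulfate outside the cell and thereby alters FGF binding, was the 1 gene at least 1.5-fold lower, with an FPKM of 64.7 in the Prg4KO library and 110.3 in the WT library (count ratio 0.588, 0.568 to 0.608). The chain-building polymerase genes Ext1 and Ext2 had 24.8 and 46.6 in the Prg4KO library, against 25.5 and 41.1 in the WT library. Glce, the epimerase of the chain, had the highest log2 ratio of the 10, at 0.22, with 5.23 in the Prg4KO library and 4.36 in the WT library.

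The relay from receptor to MAP kinase lay near the all-gene median. All 21 relay genes were listed, 17 reached the level limit, and 0 of these passed 1.5-fold in either direction. Their median log2 ratio was 0.10, with 12 below and 5 at or above the all-gene median. Sos2, one of the exchange factors that act on RAS proteins, had the lowest ratio, with 546 counts in the Prg4KO library and 799 in the WT library (0.691, 0.618 to 0.771). The most abundant of the relay were the kinase Mapk3 (FPKM 55.4 in the Prg4KO library and 53.6 in the WT library), its activator Map2k2 (43.6 in the Prg4KO library and 44.2 in the WT library) and the adaptor Shc1 (40.4 in the Prg4KO library and 49.9 in the WT library).

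Other feedback inhibitors lay on both sides of the all-gene median. Of 13, 7 reached the level limit, 0 passed 1.5-fold, 5 lay below the all-gene median and 2 above it, and the median log2 ratio was 0.09. Dusp6, the phosphatase that removes ERK phosphorylation and is a usual readout of FGF signalling, had an FPKM of 72.4 in the Prg4KO library and 68.0 in the WT library (count ratio 1.07, 1.02 to 1.11). The Sprouty-related genes split, with Spred1 at 21.6 in the Prg4KO library and 16.1 in the WT library (1.33, 1.26 to 1.41) and Spred2 at 4.49 in the Prg4KO library and 5.67 in the WT library (0.793, 0.675 to 0.931). Errfi1, an inhibitor of the EGF receptor, had 255.6 in the Prg4KO library and 231.7 in the WT library, and Dusp5, a nuclear ERK phosphatase, had 58.6 in the Prg4KO library and 64.5 in the WT library.

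Of 12 transcription factors and targets that FGF and MAP kinase induce, 11 reached the level limit, 0 passed 1.5-fold, 9 had ratios under the all-gene median, and the middle gene of the list was at -0.07 (log2). Egr1, an immediate early zinc finger factor, was both the most abundant and the lowest by ratio, with 535 in the Prg4KO library and 728 in the WT library (0.736, 0.726 to 0.746). Fos, a part of the AP-1 factor, had the highest ratio, with 233 in the Prg4KO library and 199 in the WT library (1.18, 1.14 to 1.21). Ier2 had 341 in the Prg4KO library and 340 in the WT library, and Phlda1 had 190 in the Prg4KO library and 240 in the WT library. The ETS factors Etv4 and Etv5, which are closely tied to FGF signalling and fell outside the rule for named genes, had 5.71 and 21.4 in the Prg4KO library and 7.32 and 18.3 in the WT library, so that their ratios lay on opposite sides of 1. Etv1, the ETS factor of the list under the level limit, had 59 counts in the Prg4KO library and 115 in the WT library (count ratio 0.52, 0.37 to 0.72).

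**Figure D5:**
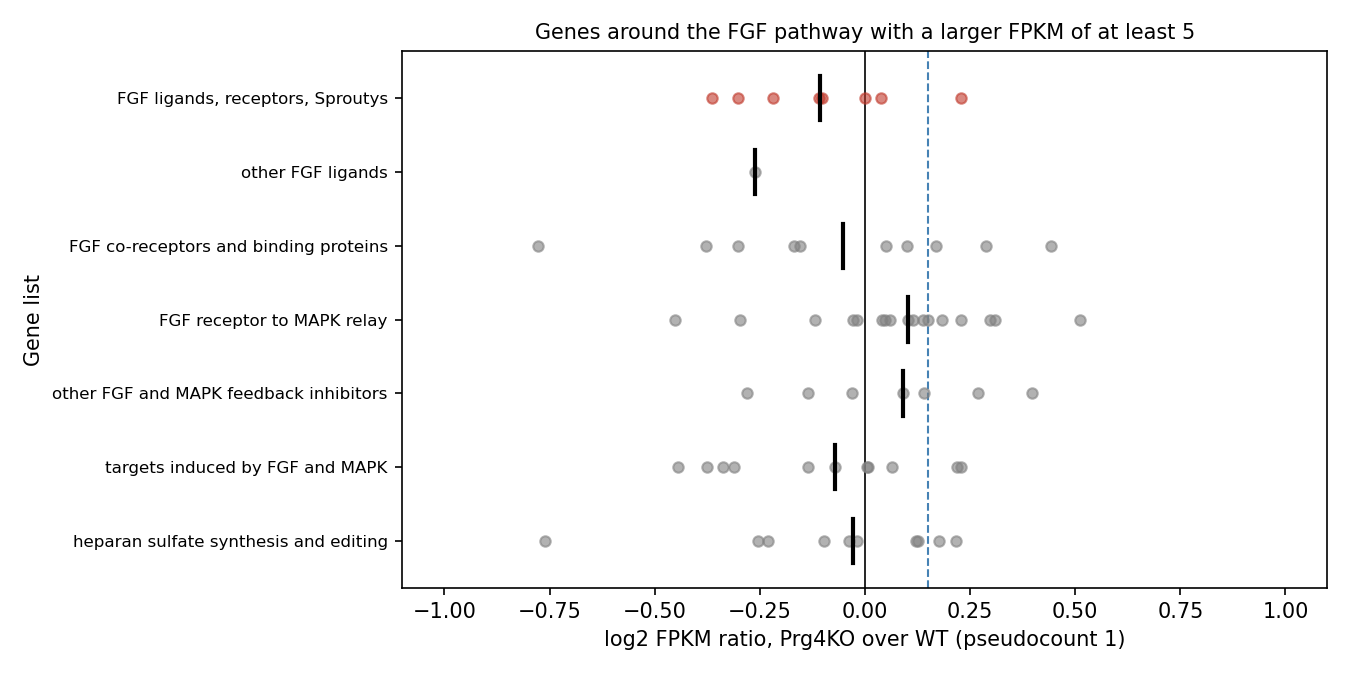
log2 FPKM ratio, Prg4KO over WT, of each gene that reached FPKM 5 in either library (points) for the FGF ligands, receptors and Sproutys (red, top) and for the 6 surrounding lists (grey), with the list median as a black bar and the all-gene median of 0.15 as a dashed line. The medians run from -0.26 for the single other ligand to 0.10 for the relay genes.

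Markers of other cells also differed between the libraries, and each library holds the RNA of all collected cells, so fewer cells of a type and less RNA per cell cannot be told apart. All 6 hypertrophic chondrocyte markers lay above the all-gene median, in the direction of Fgfr3, which itself lay only 0.08 (log2) above it. Their summed FPKM was 896.5 in the Prg4KO library and 550.4 in the WT library, and Panx3 and Spp1 were at least 2-fold higher. Of the 8 chondrocyte markers, 6 lay above the all-gene median (summed FPKM 20440 in the Prg4KO library and 18240 in the WT library). The 2 below it were Acan and Col2a1, and Col2a1 made up most of the summed FPKM in both libraries. In the direction of the ligands, Fgfr2 and the Sprouty genes, 7 of 8 superficial zone markers lay below the all-gene median, the deleted gene Prg4 among them. Without Prg4, 6 of the other 7 lay below it, and their summed FPKM was 357 in the Prg4KO library and 527.6 in the WT library. Also below it were all 7 tested fibroblast, tendon and ligament markers of 8 (10670 in the Prg4KO library and 18650 in the WT library) and all 5 tested endothelial markers of 6 (75.8 in the Prg4KO library and 79.6 in the WT library). The endothelial marker under the level limit, Tek, lay on the other side, with 200 counts in the Prg4KO library and 141 in the WT library (count ratio 1.43, 1.15 to 1.79). The fibroblast marker Col1a1 was at least 2-fold lower, with an FPKM of 5593 in the Prg4KO library and 11470 in the WT library. Together with Col1a2 (3869 in the Prg4KO library and 5838 in the WT library) it made up most of the fibroblast, tendon and ligament sum. Tnmd, with the highest ratio of the tested markers of that list, had 314 in the Prg4KO library and 321 in the WT library. Of the osteoclast and macrophage markers, 4 of 5 tested lay above the all-gene median (270.7 in the Prg4KO library and 194.8 in the WT library), and 2 of them, Mmp9 and Acp5, passed 2-fold. The osteoblast markers (32.7 in the Prg4KO library and 19.6 in the WT library, 2 of 2 tested above) and the blood markers (2204 in the Prg4KO library and 1308 in the WT library, 3 of 3 tested above) stood higher as well. The skeletal muscle markers summed to 10.5 in the Prg4KO library and 10.6 in the WT library, 1 being tested and lying below. Of these lists, Myh3 of muscle was the single marker not listed with a WT value. Near 0 were the muscle factor Myod1 (FPKM 0.13 in the Prg4KO library and 0.28 in the WT library) and the leukocyte marker Ptprc (0.53 in the Prg4KO library and 0.28 in the WT library). The part of these cells in the ratios of the 10 FGF genes was not tested.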

How the data were processed

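Each genotype had 1 RNA-seq library. The authors deposited 1 table with expected counts and FPKM per gene, per the file headers. HISAT2, Bowtie2, RSEM and the build mm10 are named, without roles or versions, per the submitters' processing notes. Strand use is not given in the sources used here. The table names 15719 genes with WT values and holds 15973 pairs of Prg4KO values, which lose their place beside the gene names after row 20 (r of log2 FPKM across later rows 0.0841).

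The Prg4KO values were re-paired with genes. Both columns were taken as ordered subsets of 1 gene list, sorted by gene number as text, in which unexpressed genes are skipped. A pair hidden Markov model scored order and effective length (count divided by FPKM), not level. The base probability of a missing partner was 0.002, plus 0.4 at a count of 0 falling with a scale of 3 counts. Exact length matches weighed 97% in single-transcript genes and 30% in the rest, and other shifts followed Laplace distributions of scale 0.02 and 0.2. Pairs at a probability of at least 0.95 covered 14811 genes (94.2%), including 6836 of the 6840 with a WT FPKM of at least 5, with r = 0.981 between libraries (log2 FPKM; across genes, no independent replicates). The pairing was tested on simulated data with known partners, and over 3 runs 12 of 45108 pairs at that probability were wrong. The simulated lengths followed the assumptions of the model itself, so the runs cannot show how well it fits the real rows.

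Counts have exact 95% Poisson intervals, and count ratios per library total have exact conditional (Clopper-Pearson) intervals. A factor between 2 within-library ratios has a 95% interval from the delta method on the log counts. All cover counting error only. Log2 ratios used FPKM with a pseudocount of 1, and calls needed a larger FPKM of at least 5. Named genes were the 10 genes and, of each surrounding list, the 3 most abundant and any past 2-fold. Those with the lowest and the highest log2 ratio at that level were named too. Outside this rule, Etv1, Etv4, Etv5, Spry3, Nudt6, Myod1 and Ptprc were added after their values were seen. So were, also outside this rule, the markers Acan, Col10a1, Col1a2, Col2a1, Gdf5, Tek, Thbs4 and Tnmd. A gene that this rule names is not reported here. The 10 genes and the lists were chosen with earlier results of these data known. Alternatives were other scalings (TMM with edgeR 4.0.16), pseudocounts, filters, length and GC trends and pairing limits. Python 3.11.15, numpy 2.4.6, scipy 1.17.1, statsmodels 0.14.6 and R 4.3.3 were used. Proteins were not analysed here.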

Additional observations from a re-analysis of the deposited data

How the results depend on the processing

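No paired analysis was possible because each genotype has 1 library. The count of 0 past 2-fold among the 8 genes above the level limit was 0 under every alternative run, and leaving out a library could not be done. The median log2 ratio of the 8, -0.11 as reported, was -0.25 in TPM, -0.26 with library medians equalised, -0.26 with upper quartiles equalised and -0.27 with TMM factors. These rescalings took the all-gene median from 0.15 to between -0.0009 and 0.02. The distance of the median from that of all genes was between -0.27 and -0.26 under them. Each rescaling multiplies all genes of a library by 1 constant, so this distance was bound to change little. With the length and GC trend removed, an alternative chosen after seeing the data that held 24.0% of the variance of the ratios, the median of the 8 was -0.0053, against 0.16 for all genes. The number below the all-gene median ranged from 5 (length and GC trend removed) to 7 of the 8, and was 9 of 10 without a level limit. Fgfr3 lay above the all-gene median, and Fgf2, Fgf18, Fgfr2, Fgfr4, Spry1, Spry2 and Spry4 below it, under all 11 alternatives run for single genes. The rescalings among these alternatives could move a gene against that median mainly through the pseudocount, and that with TMM factors also through its use of counts. The pairing alternatives left the ratios of the 10 genes unchanged. Receptor shares by count, which do not allow for length, were 68.0% for Fgfr1, 9.76% for Fgfr2, 21.1% for Fgfr3 and 1.08% for Fgfr4 in the Prg4KO library, and 68.1%, 11.7%, 18.5% and 1.74% in the WT library. Depth limits Fgf2 most, at 22 counts in the Prg4KO library and 31 in the WT library.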
